A study of Mus musculus with 24 samples.

Results

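CD8 T cells from the bone marrow of mice given ruxolitinib and cyclosporine together were compared with CD8 T cells from untreated mice, across transcription factors, surface receptors and metabolic genes, and against the marker genes of other marrow cells. The comparison rests on 6 of the 24 libraries of the study. The untreated group has pools 1, 2 and 3, and the group given both drugs, called RUX+CSA, has pools 10, 11 and 12. All animals were female CByB6F1 hybrid mice aged 2 to 5 months with immune-mediated bone marrow failure, so the untreated animals carry the disease as well and no healthy animal enters the comparison. Each library came from CD8 cells sorted by flow cytometry and pooled from 2 or 3 mice, so the spread between libraries is a spread between pools, not between single animals. The 3 CD8 pools given cyclosporine alone (CSA) and the 3 given ruxolitinib alone (RUX) entered the model to estimate the spread, and their levels are given where they help to read a gene. The labels used here give neither the doses nor how the disease was induced.

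CD8 T cells recognise peptides through the T cell receptor and kill the cells that present them, and in immune bone marrow failure they attack blood-forming cells. Cyclosporine blocks calcineurin, the phosphatase that sends NFAT factors to the nucleus after receptor engagement. Ruxolitinib blocks the kinases JAK1 and JAK2, which carry signals from interferon and cytokine receptors to STAT factors. A CD8 cell that leaves the resting state changes its transcription factors, exchanges surface receptors and shifts its fuel use.

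The 12 CD8 libraries held between 16912085 read pairs (untreated 2) and 34550183 (RUX+CSA 12). T cell markers summed to 6921 to 7555 CPM (read pairs of a gene per mega read pairs of the library) in untreated and 7253 to 7642 in RUX+CSA pools, and the CD8 coreceptor genes Cd8a and Cd8b1 to 2142 to 2311 and 2407 to 2639, which matches the sort label. Summed levels of neutrophil, erythroid, B and plasma cell, and basophil and mast cell markers, as CPM of all counted pairs, were higher in RUX+CSA pools. Of 125 genes tested in 10 other-cell lists, 48 rose and 6 fell, with a median log2 fold change of 2.43, and the rises took in 9 of 27 neutrophil, 15 of 18 erythroid and 8 of 14 B and plasma cell genes. The 27 neutrophil genes summed to 574, 13.5 and 1644 CPM in untreated pools 1, 2 and 3, against 4608 to 6030 in RUX+CSA, 934 to 3729 in CSA and 2044 to 3394 in RUX pools, and untreated 2 stood apart with 19 of the 27 at 0. The 24 erythroid genes summed to 7.15 to 37.4 against 105 to 334 CPM, with the globin gene Hbb-bs at 0 in every library, and the 19 B and plasma cell genes to 9.40 to 18.2 against 36 to 93.3, with the B cell gene Ms4a1 at 0 in all untreated pools. The basophil and mast cell genes ran from 7.39 to 35 against 92.9 to 126 CPM, and 8 of 10 tested rose. Macrophage and monocyte genes did not move one way. Their sum was 151 to 279 against 664 to 823 CPM, but 2 of 25 tested rose and 5 fell, 16 had a log2 fold change below 0 and the median was -0.67. C1qa and C1qb, defining macrophage genes, stood at 2.42 to 5.32 and 4.34 to 11.5 CPM in untreated and 0.579 to 1.03 and 1.10 to 1.79 in RUX+CSA pools. Dendritic cell genes summed to 108 to 188 against 87.4 to 127 CPM, with 9 of 11 below 0. NK cell genes summed to 59.5 to 81.4 CPM in untreated and 180 to 221 in RUX+CSA pools, and 2 of 7 tested rose. Their sum was 224, 298 and 80.2 CPM in CSA pools 4, 5 and 6 and 230, 71.55 and 73.9 in RUX pools 7, 8 and 9. Stem and progenitor genes summed to 12.5 to 42.7 against 66.15 to 69.7 CPM, and 4 of 9 tested rose. The single-drug libraries CSA 6 and RUX 7 also stood apart from the other pools of their groups for many genes below. In sorted bulk RNA, more cells of a type and more RNA per cell cannot be told apart.

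Of 12684 genes tested, 1007 rose (7.94%) and 981 fell (7.73%) at an adjusted p below 0.05, which is 15.7% in all, by edgeR's quasi-likelihood test with Benjamini-Hochberg adjustment. Among these, 407 rose and 278 fell by more than 2-fold. The 3 pools of one group lay wholly above or below those of the other for 43.5% of all tested genes, and for 1969 of the 1988 called genes. Of the called genes, 367 kept their call whichever of the 6 libraries was left out. Without untreated 2, 1455 lost it, and without RUX+CSA 10, 1564 did. Refitted without untreated 1, 2 and 3 in turn, the comparison called 1303, 538 and 1205 genes, and without RUX+CSA 10 and 11 it called 426 and 656. Without the single-drug libraries CSA 6 and RUX 7 it called 3893. Below, each library named beside a lost call was left out on its own. Levels are CPM of TMM-scaled totals in pools 1, 2 and 3 and then pools 10, 11 and 12. Fold changes are on the log2 scale with their standard errors, and every adjusted p is from the same edgeR test.

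Of 389 transcription factors tested, 44 rose (11.3%, background 7.94%) and 32 fell (8.23%, background 7.73%). Their median log2 fold change was 0.00, against -0.02 over all genes. Of the 44 that rose, 6 are themselves in other-cell lists, against 0 of the 32 that fell. Over all tested genes these lists held 48 of the 1007 that rose and 6 of the 981 that fell. Without untreated 2, RUX+CSA 10 and RUX+CSA 11 in turn, 24, 18 and 32 factors were called. In the EGR and NR4A group with its IER, NAB and SRF partners, 6 of 12 rose (50%, background 7.94%) and none fell, with a median log2 fold change of 0.66. Of these 6 calls, 3, 1 and 6 were kept when untreated 1, 2 or 3 was left out, and 2, 1 and 4 when RUX+CSA 10, 11 or 12 was. Many genes of the group are immediate-early genes, transcribed within minutes of a stimulus without new protein synthesis. Together with the AP-1 genes Fos, Junb and Jund, which also rose, these calls make 9 factors. Promoters of 7 of these were in the RefSeq table for GRCm38.p6, and the 250 bases before the start of transcription are shown for the 4 in which a short cyclic AMP response core was found. Capitals mark that core, TGACG or its reverse complement CGTCA, and in Srf also the CArG box, the site named for serum response factor.
Nr4a1 (chr15:101266596-101266845, plus strand): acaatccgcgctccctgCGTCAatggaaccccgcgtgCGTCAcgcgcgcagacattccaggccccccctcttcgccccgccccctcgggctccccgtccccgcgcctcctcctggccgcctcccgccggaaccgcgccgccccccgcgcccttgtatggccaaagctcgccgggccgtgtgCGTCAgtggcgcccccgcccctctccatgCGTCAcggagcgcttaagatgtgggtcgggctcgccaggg
Fos (chr12:85473640-85473889, plus strand): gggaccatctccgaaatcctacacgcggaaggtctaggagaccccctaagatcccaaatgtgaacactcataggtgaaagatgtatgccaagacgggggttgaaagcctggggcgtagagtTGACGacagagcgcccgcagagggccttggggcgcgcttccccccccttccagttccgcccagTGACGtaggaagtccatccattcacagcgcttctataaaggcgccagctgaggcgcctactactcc
Junb (chr8:84978749-84978998, minus strand): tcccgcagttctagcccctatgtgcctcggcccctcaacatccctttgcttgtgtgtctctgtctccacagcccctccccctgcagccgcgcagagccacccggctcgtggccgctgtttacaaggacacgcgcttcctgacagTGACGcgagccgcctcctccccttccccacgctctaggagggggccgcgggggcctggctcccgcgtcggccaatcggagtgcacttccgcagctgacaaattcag
Srf (chr17:46556163-46556412, minus strand): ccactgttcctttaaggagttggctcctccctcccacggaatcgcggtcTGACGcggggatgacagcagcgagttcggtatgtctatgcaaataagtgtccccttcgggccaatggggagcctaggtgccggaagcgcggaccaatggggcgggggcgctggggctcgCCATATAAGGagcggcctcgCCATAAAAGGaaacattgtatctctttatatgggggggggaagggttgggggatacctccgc

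The core occurred 4 times in the Nr4a1 promoter, with its first base 233, 213, 69 and 40 bases before the start. It occurred in Fos at 129 and 66 bases, in Junb at 106 and in Srf at 201. Both strands were searched. Among 32841 promoter windows of the same length, 17.8% held the core, 1.55% the full palindrome, TGACG followed by TCA, and 1.47% a CArG box. The full palindrome was in none of the 7 promoters, and the CArG box was in Srf alone, at 82 and 62 bases before the start. These are matches of letters in a window and do not show that a factor binds there.

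Nr4a1, a nuclear receptor whose transcription follows T cell receptor signalling, had 24.7, 13.7 and 52.4 CPM in the untreated and 215, 214 and 234 in the RUX+CSA pools (log2 fold change 2.86, SE 0.67, adjusted p = 0.0239, n = 3 each). The call was lost without untreated 1, untreated 2, RUX+CSA 10 or RUX+CSA 11 (adjusted p from 0.0572 to 0.0798). Its level was 127, 128 and 62.3 in CSA pools 4, 5 and 6 and 202, 43.4 and 51.5 in RUX pools 7, 8 and 9, so CSA 4, CSA 5 and RUX 7 lay nearer to RUX+CSA and CSA 6, RUX 8 and RUX 9 nearer to untreated. The summed NK cell markers split between these pools in the same way. With the erythroid marker level as a covariate the log2 fold change of Nr4a1 was 0.44. The part of erythroid or NK cells in the result was not tested. Egr1, a zinc finger factor induced by the same signals, had 51.3, 46.7 and 86.2 and then 172, 199 and 184 CPM (log2 fold change 1.59, SE 0.36, adjusted p = 0.0196). This call did not hold without untreated 1, untreated 2, RUX+CSA 10 or RUX+CSA 11 (adjusted p from 0.0571 to 0.0792). Beside the erythroid covariate its log2 fold change was 0.14. Fos, an AP-1 subunit, had 36.1, 59.2 and 60.1 and then 173, 148 and 167 CPM (log2 fold change 1.65, SE 0.49, adjusted p = 0.0494). It was not called without any 1 of the 6 libraries (adjusted p from 0.0771 to 0.128). Ier2, a nuclear protein induced early after growth signals, was tighter, at 116, 113 and 122 and then 187, 205 and 229 CPM (log2 fold change 0.82, SE 0.15, adjusted p = 0.00853), and kept its call in every leave-out. Neither Ier2 nor any other called gene of the EGR and NR4A group stayed apart from other-cell markers by the rule given below. Srf, the factor of the CArG box, rose least, from 50.2, 37.9 and 50.7 to 58.0, 62.5 and 61.3 CPM (log2 fold change 0.39, SE 0.11, adjusted p = 0.0359). Significance was lost without untreated 2, RUX+CSA 10, RUX+CSA 11 or RUX+CSA 12 (adjusted p from 0.0685 to 0.111).

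Other factors that rose include regulators of naive and memory T cells and of the MYC network. Tcf7, the factor TCF1 of naive and memory T cells, at chr11:52252604-52282571 in mm10, had 119.8, 154 and 97.4 CPM in untreated and 297, 308 and 274 in RUX+CSA pools (log2 fold change 1.25, SE 0.26, adjusted p = 0.0148). The gene fell short of the threshold without RUX+CSA 10 (adjusted p = 0.0544). Its relatives in the TCF, LEF and SOX family did not pass the test, and Tcf7 was the only called member of 17. Tcf7 stood at 197, 209 and 136 CPM in the CSA pools and 322, 162 and 177 in the RUX pools, with RUX 7 above every RUX+CSA pool. CSA 4, CSA 5 and RUX 7 were the highest single-drug pools for Tcf7 and for the summed NK cell markers. The part of NK cells in the rise of Tcf7 was not tested. Id3, an inhibitor of E proteins, had 11.2, 12.1 and 6.94 and then 23.3, 27.3 and 17.4 CPM (log2 fold change 1.17, SE 0.23, adjusted p = 0.00985). Zhx2, a zinc finger and homeobox repressor, had nearly equal untreated pools at 12.0, 12.2 and 12.8 CPM and RUX+CSA pools at 23.9, 22.9 and 25.9 CPM (log2 fold change 0.97, SE 0.10, adjusted p = 0.00154), while all 6 single-drug pools lay between 13.8 and 16.5 CPM. Mxd1, a partner of MAX that opposes MYC, had 65.5, 58.5 and 78.7 and then 161, 143 and 159.9 CPM (log2 fold change 1.19, SE 0.15, adjusted p = 0.00327). Mlx, which pairs with the carbohydrate-sensing factors, had 76.3, 71.9 and 72.3 and then 106, 97.7 and 88.7 CPM (log2 fold change 0.41, SE 0.08, adjusted p = 0.00954). In each of these 5 genes the groups did not overlap, and Id3, Zhx2, Mxd1 and Mlx kept their calls in all 6 leave-outs.

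Rara, the retinoic acid receptor alpha, had 13.6, 14.2 and 7.85 and then 31.9, 32.1 and 33.6 CPM (log2 fold change 1.45, SE 0.42, adjusted p = 0.0426). The CSA pools had 30.3, 32.2 and 13.3 CPM and the RUX pools 35.7, 15.1 and 13.5, the same split as for Nr4a1. Its call was lost without any 1 of the 6 libraries (adjusted p from 0.0725 to 0.119). Nfe2, a bZIP factor best known in megakaryocytes and red cell precursors, rose from 2.90, 2.50 and 6.51 to 21.2, 15.9 and 19.3 CPM (log2 fold change 2.24, SE 0.34, adjusted p = 0.00499) and kept its call in every leave-out. Its log2 fold change was 1.40, 1.91 and 2.28 beside the neutrophil, erythroid and B cell covariates, and erythroid markers rose in the same pools.

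Among factors that fell, Rbpj, the DNA-binding partner of Notch, had 129, 192 and 149.8 CPM in untreated and 50.9, 55.9 and 51.5 in RUX+CSA pools (log2 fold change -1.57, SE 0.32, adjusted p = 0.0147). The call was lost without untreated 2 or RUX+CSA 10 (adjusted p from 0.056 to 0.066). CSA pools stood at 72.0, 82.9 and 139.9 and RUX pools at 66.7, 142 and 157, the same split as for Nr4a1 in the opposite direction, and beside the erythroid covariate the log2 fold change was -0.57. Of 36 tested BTB zinc finger genes none rose and 4 fell (11.1%, background 7.73%), and none of the 4 kept its call in all leave-outs. Zbtb20, a repressor of the family, had 9.37, 14.3 and 11.3 and then 3.98, 5.43 and 4.47 CPM (log2 fold change -1.34, SE 0.27, adjusted p = 0.0116). This call did not hold without untreated 2 or RUX+CSA 10 (adjusted p from 0.0506 to 0.0596). Zbtb4, a reader of methylated DNA, had 27.2, 41.6 and 24.0 and then 14.7, 12.8 and 19.0 CPM (log2 fold change -0.99, SE 0.22, adjusted p = 0.0148). It was not called without untreated 2, RUX+CSA 10 or RUX+CSA 11 (adjusted p from 0.057 to 0.0688). Tef, a clock-linked bZIP factor, fell from 22.9, 36.8 and 28.9 to 12.5, 14.2 and 14.4 CPM (log2 fold change -1.10, SE 0.22, adjusted p = 0.0103). Significance was lost without RUX+CSA 10 (adjusted p = 0.0543). Zfp831, a zinc finger gene, fell from 16.3, 22.8 and 16.2 to 10.0, 9.99 and 10.0 CPM (log2 fold change -0.88, SE 0.18, adjusted p = 0.0116). The gene fell short of the threshold without RUX+CSA 10 (adjusted p = 0.0531). Mlxip, the partner of Mlx in glucose sensing, fell while Mlx rose, from 128, 161 and 139 to 61.9, 82.1 and 94.6 CPM (log2 fold change -0.84, SE 0.14, adjusted p = 0.00569), and kept its call in every leave-out. Beside the B cell covariate its log2 fold change was -0.25.

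**Figure D1:**
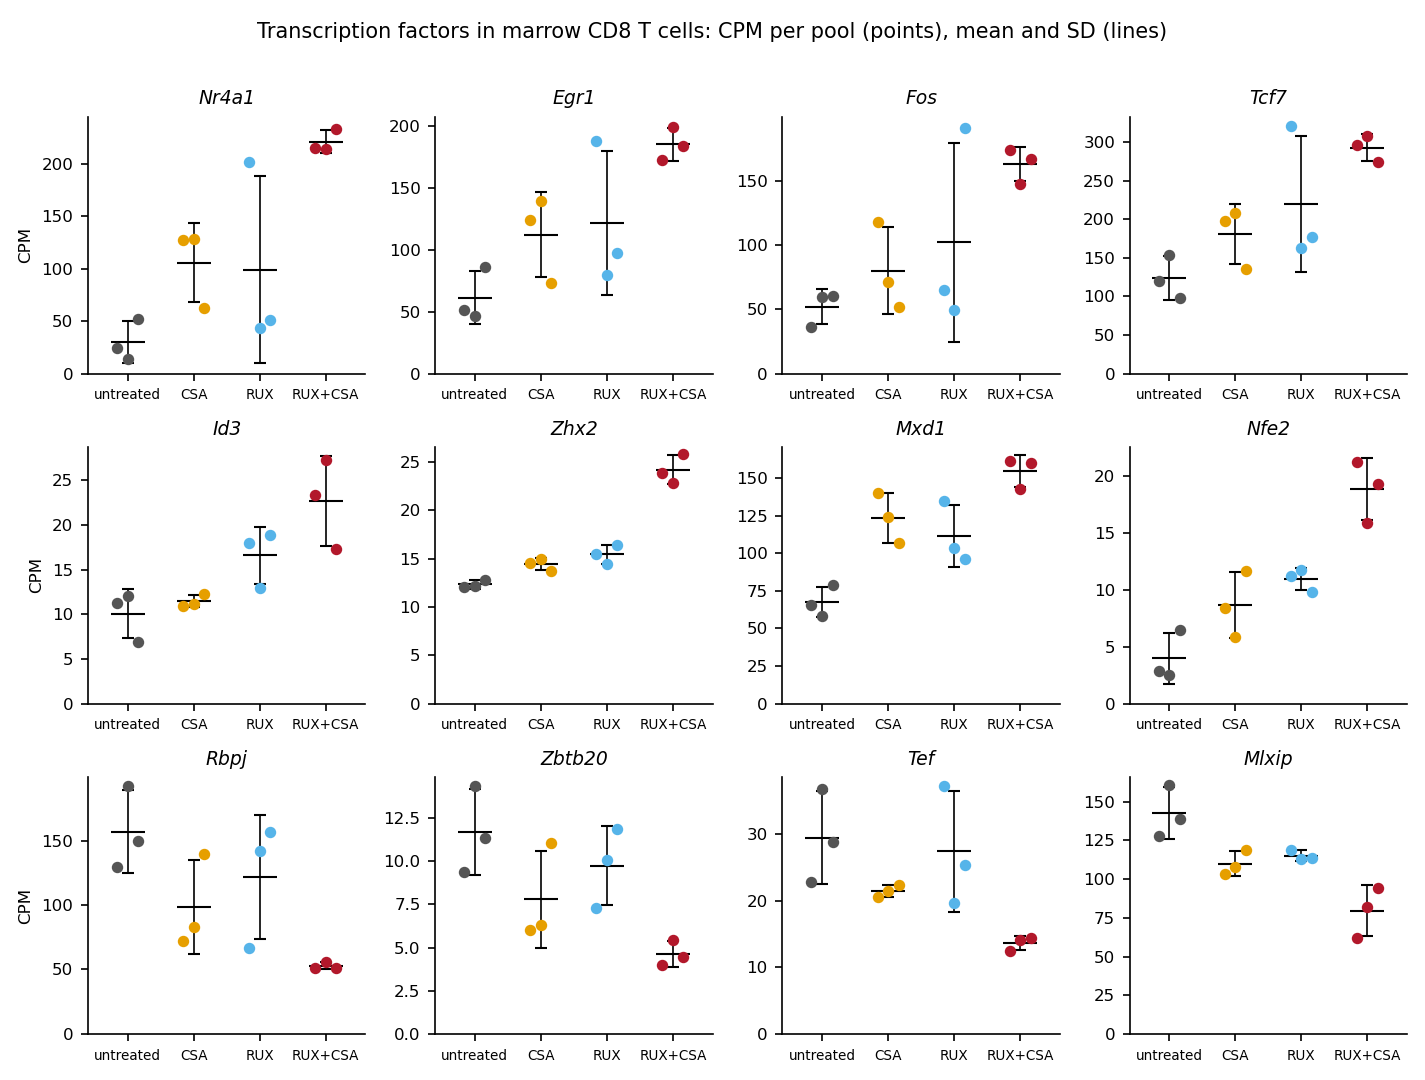
Levels of 12 transcription factors in the 12 CD8 pools, in CPM of TMM-scaled totals on axes that start at 0. Points are pools, and the bar with its error is the mean and SD of 3 pools. The RUX+CSA pools lie above all untreated pools for Nr4a1, Egr1, Fos, Tcf7, Id3, Zhx2, Mxd1 and Nfe2 and below them for Rbpj, Zbtb20, Tef and Mlxip.

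Of 442 surface receptors tested, 97 rose (21.9%, background 7.94%) and 31 fell (7.01%, background 7.73%), with a median log2 fold change of 0.22. Without untreated 1, untreated 2, RUX+CSA 10 and RUX+CSA 11 in turn, 80, 58, 45 and 62 receptors were called. The class also holds many receptors of myeloid cells, whose markers were higher in the same pools. Of the 97 receptors that rose, 18 are themselves in other-cell lists, as are 3 of the 31 that fell. Among those that fell were receptors of cytotoxic and activated T cells. Cd7, an immunoglobulin-family receptor of T and NK cells at chr11:121036749-121039478, had 545, 707 and 671 CPM in untreated and 165, 179.7 and 181 in RUX+CSA pools (log2 fold change -1.87, SE 0.24, adjusted p = 0.00353), with 463, 413 and 687 in CSA and 287, 508 and 540.2 in RUX pools. CSA 6 lay within the untreated range and the other single-drug pools between the 2 groups. Cd244, the SLAM-family receptor 2B4, had 65.3, 136 and 74.2 and then 25.1, 21.6 and 26.3 CPM (log2 fold change -1.91, SE 0.30, adjusted p = 0.00597). Tnfsf10, the death ligand TRAIL, had 90.7, 129 and 85.0 and then 42.7, 41.1 and 46.6 CPM (log2 fold change -1.22, SE 0.23, adjusted p = 0.00942). These 3 kept their calls in every leave-out, and in each all RUX+CSA pools lay below all untreated pools.

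Clec2i, a ligand of an NK-lineage lectin receptor, fell from 67.1, 96.5 and 60.9 to 35.7, 35.1 and 35.4 CPM (log2 fold change -1.08, SE 0.16, adjusted p = 0.00426). P2rx7, an ATP-gated channel that can trigger death of T cells, fell from 12.0, 14.5 and 8.98 to 3.58, 5.85 and 3.35 CPM (log2 fold change -1.48, SE 0.28, adjusted p = 0.00906). Both kept their calls in every leave-out. Cd200r1, an inhibitory receptor for CD200, had the largest fall in the class at a mean log2 CPM of at least 3, from 83.7, 151 and 107 to 14.8, 19.4 and 18.8 CPM (log2 fold change -2.69, SE 0.80, adjusted p = 0.0496). Its standard error was large, and the call was lost without any 1 of the 6 libraries (adjusted p from 0.0715 to 0.156). The CSA pools had 27.4, 24.3 and 113 CPM and the RUX pools 13.2, 72.6 and 123, so 3 single-drug pools sat near each end. Lilrb4a, an inhibitory receptor of activated leukocytes, had 178, 240.5 and 135 and then 66.2, 65.4 and 90.9 CPM (log2 fold change -1.31, SE 0.33, adjusted p = 0.0279), a call lost without untreated 1, untreated 2, RUX+CSA 10 or RUX+CSA 11 (adjusted p from 0.0544 to 0.106). Lilr4b, its near-identical neighbour, had 227, 300.3 and 188 and then 69.9, 96.5 and 123 CPM (log2 fold change -1.31, SE 0.25, adjusted p = 0.0109), a call lost without RUX+CSA 10 (adjusted p = 0.0504). Reads of the copies may be shared, so each value is uncertain.

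Of the receptors that rose, several are lymphocyte genes with narrow untreated spreads. Cxcr5, the receptor for the follicle chemokine CXCL13, had 12.0, 9.95 and 12.8 CPM in untreated and 38.3, 43.3 and 41.0 in RUX+CSA pools (log2 fold change 1.82, SE 0.20, adjusted p = 0.00154). Its log2 fold change was 1.52, 2.28 and 2.12 beside the neutrophil, erythroid and B cell covariates. Btla, an inhibitory receptor that binds HVEM, had 60.1, 57.4 and 52.6 and then 100.4, 105 and 95.3 CPM (log2 fold change 0.82, SE 0.11, adjusted p = 0.00353). Cd72, a C-type lectin best known on B cells, had 13.1, 13.3 and 11.9 and then 31.6, 33.5 and 31.5 CPM (log2 fold change 1.33, SE 0.21, adjusted p = 0.00559), with B cell markers higher in the same pools and a log2 fold change of 1.06 beside the B cell covariate. Gpr155, a lysosomal cholesterol sensor related to G protein-coupled receptors, had 8.78, 7.79 and 7.59 and then 14.1, 15.8 and 15.9 CPM (log2 fold change 0.92, SE 0.16, adjusted p = 0.00702). Cd9, a tetraspanin, rose from 43.2, 31.8 and 64.4 to 143, 144 and 109 CPM (log2 fold change 1.5, SE 0.24, adjusted p = 0.00637). Itgb2, the common beta chain of leukocyte integrins, rose from 1104, 1069 and 1104 to 1482, 1454 and 1500.0 CPM (log2 fold change 0.44, SE 0.08, adjusted p = 0.00936). All 6 of these genes kept their calls in every leave-out.

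Among receptors whose mean log2 CPM was 3 or more and which are in no other-cell list, the largest rises were in receptors known mainly from granulocytes and monocytes. C5ar1, the complement C5a receptor, had 2.66, 1.08 and 5.29 CPM in untreated and 28.2, 18.6 and 22.3 in RUX+CSA pools (log2 fold change 2.91, SE 0.51, adjusted p = 0.00816). Pirb, a paired immunoglobulin receptor of myeloid and B cells, had 2.86, 0.967 and 4.38 and then 20.3, 15.8 and 21.6 CPM (log2 fold change 2.79, SE 0.49, adjusted p = 0.00835). Itgam, the CD11b chain, had 18.0, 9.10 and 41.6 and then 158, 123 and 130.4 CPM (log2 fold change 2.57, SE 0.43, adjusted p = 0.00816). Itgad, the related CD11d chain, had 6.71, 4.49 and 6.03 and then 45.9, 48.2 and 34.2 CPM (log2 fold change 2.89, SE 0.55, adjusted p = 0.0116). Its call was lost without untreated 2 (adjusted p = 0.0546). Itgad was at 24.6, 19.7 and 5.70 CPM in CSA pools 4, 5 and 6 and 20.8, 9.76 and 6.20 in RUX pools 7, 8 and 9. Among the CSA pools, CSA 6 had the highest summed neutrophil markers and the lowest summed NK cell markers. Beside the neutrophil covariate the log2 fold changes were 1.48 for C5ar1, 1.37 for Pirb, 1.5 for Itgam and 2.76 for Itgad. Untreated 2, which nearly lacked neutrophil markers, had the lowest level of all 4 genes, and its level of Itgad was 0.705 times the mean of untreated 1 and 3 against 0.272, 0.306 and 0.267 for C5ar1, Itgam and Pirb. Cd24a, a surface glycoprotein of immature blood cells, was listed at 0 in untreated 2, with 2.30, 0 and 8.16 and then 47.1, 29.7 and 54.9 CPM (log2 fold change 3.62, SE 0.83, adjusted p = 0.0223). The call was lost without untreated 1, RUX+CSA 10 or RUX+CSA 11 (adjusted p from 0.0502 to 0.073). Cd300lf, a lipid-binding inhibitory receptor, had 2.26, 0.455 and 5.94 and then 17.4, 12.9 and 19.3 CPM (log2 fold change 2.49, SE 0.68, adjusted p = 0.0352), with 0.45 beside the neutrophil covariate, and lost its call without untreated 1, untreated 2, RUX+CSA 10, RUX+CSA 11 or RUX+CSA 12 (adjusted p from 0.0637 to 0.098). The part of neutrophils or NK cells in these rises was not tested.

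**Figure D2:**
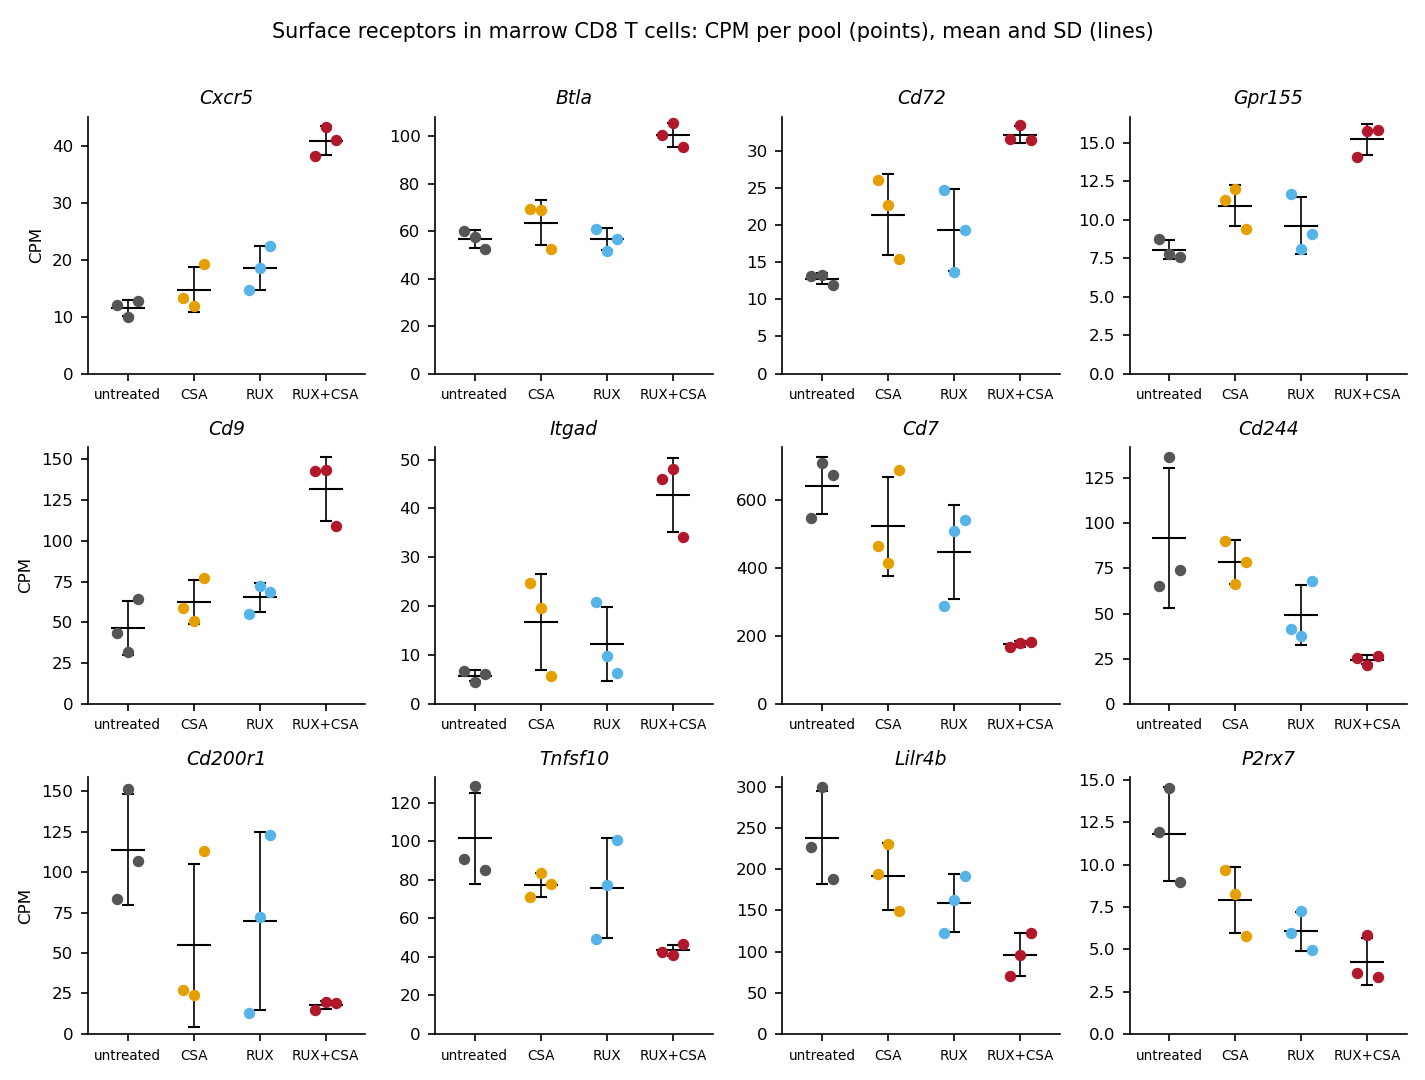
Levels of 12 surface receptors in the 12 CD8 pools, in CPM of TMM-scaled totals on axes that start at 0, with points for pools and the mean and SD of 3 pools. Cxcr5, Btla, Cd72, Gpr155, Cd9 and Itgad are higher and Cd7, Cd244, Cd200r1, Tnfsf10, Lilr4b and P2rx7 lower in all RUX+CSA pools than in all untreated pools.

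Of 713 metabolic genes tested, 99 rose (13.9%, background 7.94%) and 34 fell (4.77%, background 7.73%), with a median log2 fold change of 0.10. Without untreated 2, untreated 3, RUX+CSA 10 and RUX+CSA 11 in turn, 44, 87, 31 and 52 were called. Of 81 glutathione, redox and xenobiotic genes 22 rose (27.2%, background 7.94%) and none fell. The group kept 14, 9 or 15 of these calls when untreated 1, 2 or 3 was left out, and 8, 13 or 17 when RUX+CSA 10, 11 or 12 was. Gpx1, the glutathione peroxidase that removes hydrogen peroxide, at chr9:108339080-108340344, had 99.4, 86.6 and 112 CPM in untreated and 208, 201 and 225 in RUX+CSA pools (log2 fold change 1.09, SE 0.11, adjusted p = 0.00154), and all 6 single-drug pools lay between the 2 groups. Gsr, which regenerates glutathione with NADPH, had 178, 142 and 191 and then 269.7, 261 and 250.1 CPM (log2 fold change 0.61, SE 0.10, adjusted p = 0.00677). Prdx5, a peroxiredoxin, had 77.0, 77.2 and 80.5 and then 126, 122 and 111 CPM (log2 fold change 0.61, SE 0.11, adjusted p = 0.00702). G6pdx, the enzyme that supplies NADPH at the entry of the pentose phosphate pathway, rose from 93.5, 70.1 and 94.1 to 156, 139 and 151 CPM (log2 fold change 0.79, SE 0.11, adjusted p = 0.00353). Nadk, which makes NADP from NAD, rose from 154, 135 and 149 to 192, 193 and 195 CPM (log2 fold change 0.40, SE 0.07, adjusted p = 0.00702). H6pd, the enzyme of the same first step inside the endoplasmic reticulum, fell from 32.6, 39.9 and 36.4 to 25.7, 20.8 and 24.1 CPM (log2 fold change -0.63, SE 0.11, adjusted p = 0.00702). Cyba, a membrane subunit of the phagocyte NADPH oxidase that lymphocytes also express, rose from 344, 289 and 270.1 to 461, 453 and 387 CPM (log2 fold change 0.53, SE 0.10, adjusted p = 0.00906). These 7 genes kept their calls in every leave-out. Untreated 2, which nearly lacked neutrophil markers, had the lowest level of Gpx1, Gsr, G6pdx and Nadk. Neutrophil and erythroid markers were higher in the same RUX+CSA pools, and their part in the rises was not tested.

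Mgst1, a microsomal glutathione transferase, rose from 2.82, 2.10 and 7.90 to 26.4, 18.0 and 16.9 CPM (log2 fold change 2.25, SE 0.60, adjusted p = 0.0335). That call was lost without untreated 1, untreated 2, RUX+CSA 10 or RUX+CSA 11 (adjusted p from 0.0699 to 0.111), and beside the neutrophil covariate the log2 fold change was 0.98. Alox5ap, which presents arachidonic acid to the lipoxygenase, rose from 1.87, 0.171 and 4.69 to 23.1, 20.6 and 19.9 CPM (log2 fold change 3.21, SE 0.72, adjusted p = 0.0192). That call was lost without untreated 1, RUX+CSA 10 or RUX+CSA 11 (adjusted p from 0.0516 to 0.0647), and the value beside the covariate was 0.94. Alox5, the lipoxygenase that starts leukotriene synthesis, rose from 2.26, 0.114 and 4.30 to 24.2, 16.0 and 21.9 CPM (log2 fold change 3.18, SE 0.75, adjusted p = 0.0225). That call was lost without untreated 1, RUX+CSA 10 or RUX+CSA 11 (adjusted p from 0.0514 to 0.0752), and the value beside the covariate was 0.56. Untreated 2 had the lowest level of Mgst1, Alox5ap and Alox5. Pygl, which releases glucose from glycogen, rose from 4.96, 2.10 and 10.8 to 54.4, 42.0 and 48.6 CPM (log2 fold change 3.00, SE 0.52, adjusted p = 0.00898) and kept its call in every leave-out, with 1.57 beside the neutrophil covariate. Aldh2, a mitochondrial aldehyde dehydrogenase, rose from 5.52, 1.36 and 13.0 to 56.3, 43.1 and 42.8 CPM (log2 fold change 2.82, SE 0.65, adjusted p = 0.0225), lost its call without untreated 1, RUX+CSA 10 or RUX+CSA 11 (adjusted p from 0.0534 to 0.0753), and had 1.02 beside that covariate. Neutrophil markers were higher in the same RUX+CSA pools. Their part in these rises was not tested.

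In glycolysis 5 of 50 genes rose (10%, background 7.94%) and 2 fell (4%, background 7.73%), and 2 of the 7 kept their calls in all leave-outs. Adpgk, an ADP-dependent glucokinase linked to T cell receptor signalling, rose from 33.5, 27.6 and 40.6 to 93.4, 79.1 and 89.7 CPM (log2 fold change 1.36, SE 0.16, adjusted p = 0.00207). Slc2a8, a glucose transporter of internal membranes, fell from 29, 32.4 and 32.5 to 19.4, 21.0 and 19.6 CPM (log2 fold change -0.65, SE 0.12, adjusted p = 0.00812). Of 71 respiratory chain genes 11 rose (15.5%, background 7.94%) and none fell, with 70 of the 71 fold changes above 0 and a median of 0.21. That count rested on single libraries, since 8 of the 11 calls were kept without untreated 1, 0 without untreated 2, 1 without untreated 3, 0 without RUX+CSA 10 and 11, and 11 without RUX+CSA 12. Ndufb11, a small subunit of complex I, is an example, with 74.9, 60.6 and 58.1 and then 96.3, 89.4 and 78.7 CPM (log2 fold change 0.45, SE 0.13, adjusted p = 0.0401). This call did not hold without untreated 2, untreated 3, RUX+CSA 10 or RUX+CSA 11 (adjusted p from 0.102 to 0.134). In the shortest of 5 groups of all tested genes by exon length, 12.2% rose and 3.43% fell, as given below. The part of exon length in the respiratory chain count was not tested.

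In fatty acid oxidation 1 of 46 genes rose (2.17%, background 7.94%) and 3 fell (6.52%, background 7.73%), so the falls were no more frequent than over all genes. Cpt1a, the rate-limiting carnitine transferase of the outer mitochondrial membrane, fell from 226, 226 and 217 to 158, 177 and 167 CPM (log2 fold change -0.42, SE 0.08, adjusted p = 0.00809). Slc25a20, the carrier that follows it, fell from 92.7, 98.6 and 89.7 to 68.3, 76.0 and 64.5 CPM (log2 fold change -0.43, SE 0.08, adjusted p = 0.01). Acot11, an acyl-CoA thioesterase, fell from 14.3, 19.2 and 14.9 to 7.13, 7.28 and 6.29 CPM (log2 fold change -1.22, SE 0.16, adjusted p = 0.00343). These 3 kept their calls in every leave-out. The 1 gene that rose, Abcd2, a peroxisomal fatty acid carrier, was at 0.874, 0.0569 and 2.00 and then 6.66, 4.33 and 9.12 CPM (log2 fold change 2.74, SE 0.70, adjusted p = 0.0271). It was not called without untreated 1, RUX+CSA 10, RUX+CSA 11 or RUX+CSA 12 (adjusted p from 0.0512 to 0.0789).

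In nutrient sensing 3 of 45 genes rose (6.67%, background 7.94%) and 5 fell (11.1%, background 7.73%), and 3 of the 8 kept their calls in all leave-outs. Sesn1, a stress-induced brake on mTORC1, fell from 33.2, 42.5 and 30.7 to 20.8, 20.9 and 23.7 CPM (log2 fold change -0.70, SE 0.13, adjusted p = 0.00872). Rheb, the small GTPase that activates mTORC1, rose from 106, 89.9 and 97.2 to 148, 137 and 126 CPM (log2 fold change 0.49, SE 0.09, adjusted p = 0.00936). Eif4ebp1, the translation repressor that mTORC1 inactivates, rose from 4.53, 4.66 and 4.12 to 8.45, 7.74 and 8.15 CPM (log2 fold change 0.87, SE 0.17, adjusted p = 0.00988). These 3 kept their calls in every leave-out.

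Other metabolic genes that fell belong to phospholipid, sphingolipid and cholesterol families. Plcg1, the phospholipase that acts downstream of the T cell receptor, fell from 158, 183 and 196 to 117, 119 and 121 CPM (log2 fold change -0.59, SE 0.09, adjusted p = 0.00426). It kept its call in every leave-out. Inpp4b, a phosphoinositide phosphatase, fell from 225, 298 and 211 to 99.4, 110.4 and 116 CPM (log2 fold change -1.17, SE 0.30, adjusted p = 0.0285), lost its call without untreated 1, untreated 2, RUX+CSA 10, RUX+CSA 11 or RUX+CSA 12 (adjusted p from 0.0501 to 0.106), and had a log2 fold change of -0.16 beside the erythroid covariate. Galc, a lysosomal galactosylceramidase, fell from 8.66, 10.3 and 10.7 to 4.87, 4.51 and 6.06 CPM (log2 fold change -0.94, SE 0.25, adjusted p = 0.0311), a call lost without untreated 2, untreated 3, RUX+CSA 10 or RUX+CSA 11 (adjusted p from 0.0796 to 0.109). Abcg1, a cholesterol exporter, fell from 76.3, 119 and 73.8 to 39.2, 47.7 and 60.4 CPM (log2 fold change -0.87, SE 0.19, adjusted p = 0.0158), a call lost without RUX+CSA 10 or RUX+CSA 11 (adjusted p from 0.0596 to 0.0723).

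**Figure D3:**
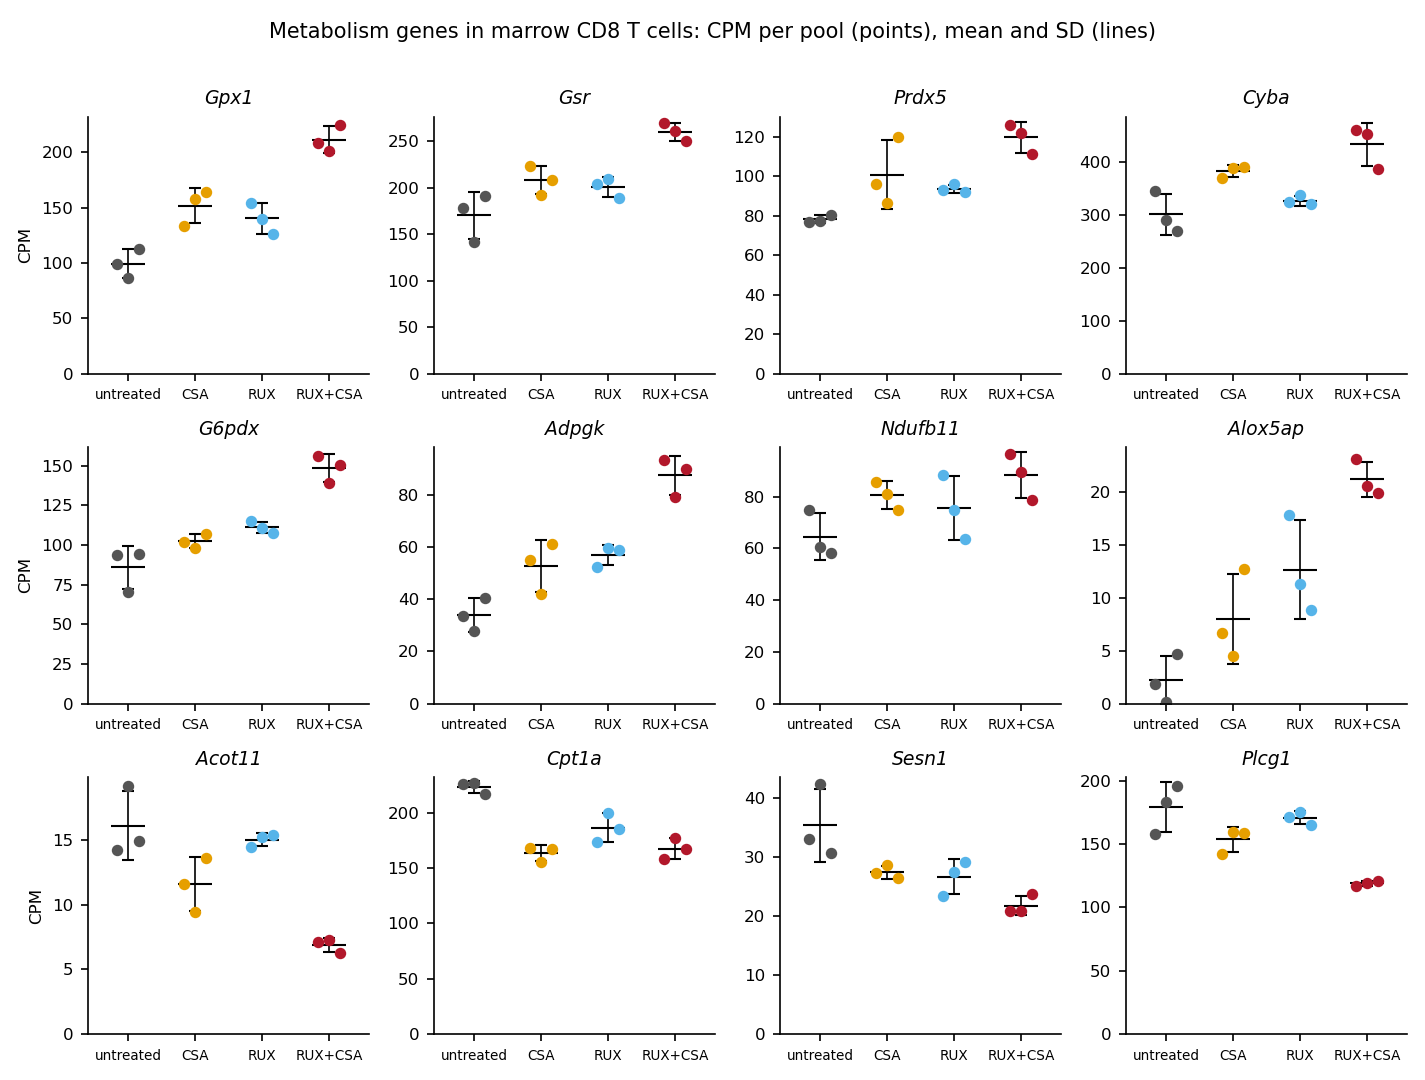
Levels of 12 metabolic genes in the 12 CD8 pools, in CPM of TMM-scaled totals on axes that start at 0, with points for pools and the mean and SD of 3 pools. Gpx1, Gsr, Prdx5, Cyba, G6pdx, Adpgk, Ndufb11 and Alox5ap are higher and Acot11, Cpt1a, Sesn1 and Plcg1 lower in all RUX+CSA than in all untreated pools.

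Changes that stay apart from markers of other cells were sought by adding, one at a time, the mean log2 level of neutrophil, erythroid and B cell markers to the model. A gene was counted as apart where it was called without a covariate, its groups did not overlap, it was in no other-cell list, and its fold change kept its sign and at least 0.5 of its size beside each covariate. By that rule 947 genes (7.47%) were apart, 436 rising and 511 falling. Marker levels and treatment overlap, since 57% of the variance of the neutrophil level, 75% of the erythroid and 83.5% of the B cell level lay between groups, and standard errors grew by a median of 1.47, 1.92 and 2.19 times. With these covariates 1, 0 and 0 genes were called by edgeR, with 2047, 2027 and 840 at an unadjusted p below 0.05, so the rule describes how fold changes behave and is not a test. With at least 0.75 of the size kept, 293 genes were apart. Leaving out untreated 2 or 3 left 305 or 449 genes apart, and leaving out RUX+CSA 10 or 11 left 308 or 431.

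Among surface receptors 43 rose and 9 fell apart, among metabolic genes 44 and 13, and among transcription factors 18 and 11. An added condition, chosen after seeing the data, asked that the level in untreated 2, which nearly lacked neutrophil markers, be within 0.5 to 2 times the mean of untreated 1 and 3. It left 389 rising and 503 falling genes (7.03% of all), and 31 and 9 receptors, 39 and 13 metabolic genes and 17 and 11 factors. The condition took out Itgam, C5ar1 and Pygl, whose levels in untreated 2 were 0.306, 0.272 and 0.267 times that mean. Tcf7, Id3, Zhx2, Mxd1, Cxcr5, Btla, Cd72, Itgb2, Gpx1, G6pdx and Adpgk stayed apart with it, as did Cd7, Cd244, Tnfsf10, Tef, Sesn1, Cpt1a and Plcg1 among those that fell. Nr4a1, Egr1, Ier2, Srf, Rara, Rbpj, Zbtb20, Zbtb4, Mlx, Mlxip and Cd200r1 were not apart. No basophil, mast cell, macrophage, NK cell or progenitor covariate was fitted.

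Over all genes whose mean log2 CPM was 3 or more, the largest falls that stayed apart were in Filip1, Cd244, Mrgpre, Cd7, St6galnac3, Kcnq1ot1, Ryr1 and Mturn. Filip1, a filamin-binding protein, had 16.8, 20.2 and 48.7 CPM in untreated and 6.46, 6.22 and 8.68 in RUX+CSA pools (log2 fold change -2.0, SE 0.37, adjusted p = 0.00936). The gene fell short of the threshold without RUX+CSA 10 (adjusted p = 0.0504). Kcnq1ot1, an imprinted antisense RNA at chr7:143213111-143296547, had 37.1, 40.4 and 38.4 and then 8.39, 14.3 and 14.4 CPM (log2 fold change -1.65, SE 0.18, adjusted p = 0.00154). Its reads cannot be told from those of the sense gene Kcnq1, because counting did not use strand. Ryr1, a calcium release channel of internal stores, at chr7:29003340-29125151, had 15.0, 22.4 and 14.6 and then 5.30, 5.53 and 5.91 CPM (log2 fold change -1.63, SE 0.18, adjusted p = 0.00154), and the 6 single-drug pools, at 17.3, 13.0 and 15.3 and 14.5, 13.3 and 13.0, lay near the untreated pools. The interaction of ruxolitinib and cyclosporine was not called for Ryr1 (log2 value -1.10, adjusted p = 0.9995 by edgeR). Mturn, a gene named for neural progenitor differentiation, fell from 28.2, 45.0 and 41.0 to 13.5, 13.3 and 15.1 CPM (log2 fold change -1.44, SE 0.19, adjusted p = 0.00343). Mrgpre, an orphan G protein-coupled receptor, fell from 10.9, 12.5 and 13.8 to 3.94, 2.90 and 3.06 CPM (log2 fold change -1.91, SE 0.34, adjusted p = 0.0078). St6galnac3, a sialyltransferase, fell from 25.9, 28.7 and 46.6 to 8.39, 10.5 and 10.3 CPM (log2 fold change -1.80, SE 0.49, adjusted p = 0.0368). Its call was lost without any 1 of the 6 libraries (adjusted p from 0.0522 to 0.129). At a mean log2 CPM of at least 3, the largest rises that stayed apart by the first rule were, beside Pygl, C5ar1, Itgad and Itgam, Plbd1, Emilin2, Anxa1 and St3gal5. Anxa1, the annexin of resolving inflammation, had 57.4, 19.7 and 105 and then 451, 377 and 358 CPM (log2 fold change 2.70, SE 0.50, adjusted p = 0.0114). Plbd1, a phospholipase B-like protein, had 3.14, 1.88 and 9.24 and then 46.7, 38.0 and 34.2 CPM (log2 fold change 3.05, SE 0.55, adjusted p = 0.00989). Emilin2, a matrix glycoprotein, had 1.91, 0.682 and 5.47 and then 23.3, 16.5 and 26.3 CPM (log2 fold change 3.02, SE 0.55, adjusted p = 0.00906). St3gal5, the GM3 synthase, had 3.77, 1.08 and 5.86 and then 19.1, 16.4 and 26.4 CPM (log2 fold change 2.51, SE 0.42, adjusted p = 0.00702). All 4 were lowest in untreated 2 and were taken out by the added condition.

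**Figure D4:**
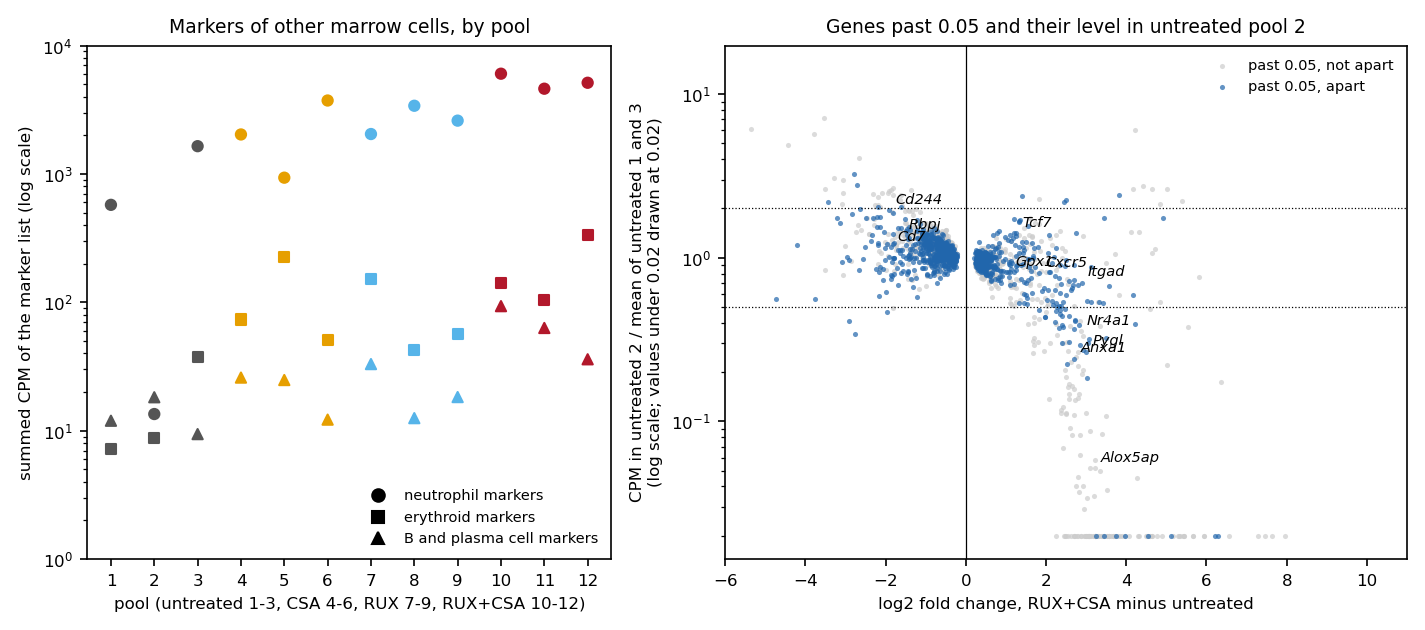
Left, summed levels of neutrophil, erythroid and B and plasma cell markers in the 12 CD8 pools, in CPM on a log axis. Right, for each called gene, the log2 fold change against the level in untreated 2 divided by the mean of untreated 1 and 3 (log axis, dotted lines at 0.5 and 2, blue for genes that stay apart): 193 genes that rose and 4 that fell lie below 0.5.

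The genes that moved differed in exon length, as annotated in the file. Genes that rose had a median of 2150 bases, those that fell 4080, and all tested genes 2822. When the tested genes were put in 5 groups of equal size by length, 12.2% of the shortest rose and 3.43% fell, whereas 3.98% of the longest rose and 15.1% fell. The median log2 fold change ran from 0.12 in the shortest to -0.16 in the longest group. It was 0.11 and -0.15 without untreated 2, and 0.14 and -0.14 with RLE scaling. In CD4 cells the same medians were 0.04 and -0.03. In the longest group the median deviation from the mean over pools was -0.15 and -0.09 in RUX+CSA 10 and 11 but 0.03 in RUX+CSA 12. Kcnq1ot1, whose counted exon spans 83437 bases, and Ryr1 are among the long genes that fell, and the part of length in those falls was not tested. Nor was its part in the counts by class and family, which are set beside the share over genes of all lengths.

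**Figure D5:**
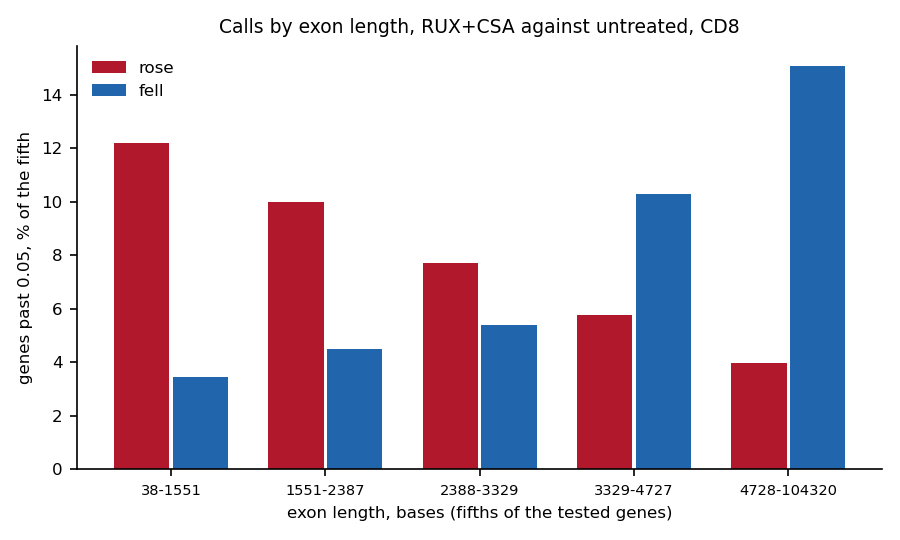
Bars give the percentage of tested genes that rose or fell in 5 groups of equal size by exon length in bases, from shortest to longest. The share that rose declines from 12.2% to 3.98% and the share that fell climbs from 3.43% to 15.1%.

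The same comparison in CD4 T cells, from separate pools that share no control library, called 135 rising (1.02%) and 98 falling genes (0.744%) of 13175. In the classes, 24 transcription factors rose and 4 fell of 397, 22 receptors rose and 10 fell of 461, and 3 metabolic genes rose and 9 fell of 729. In all, 233 genes were called in CD4 (1.77%). Of class members called in both cell types, Nr4a1 had a log2 fold change of 2.86 in CD8 and 2.46 in CD4 (SE 0.45, adjusted p = 0.0377), Cpt1a -0.42 and -0.60 (SE 0.09, adjusted p = 0.0062), Id3 1.17 and 1.29 (SE 0.26, adjusted p = 0.0304), and Clec2i -1.08 and -0.94 (SE 0.16, adjusted p = 0.00857).

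The difference between the cell types was tested for each of 13476 genes over all 24 libraries, and 3 (0.0223%) passed at an adjusted p of 0.0464, with 1906 at an unadjusted p below 0.05. Cd68, a lysosomal protein of macrophages, had 17.7, 16.3 and 17.1 CPM in untreated and 43.2, 43.1 and 37.8 in RUX+CSA CD8 pools, and 12.5, 24.7 and 23.6 and then 13.2, 13.4 and 13.3 in CD4 pools, with a difference of 1.88 (SE 0.33). Xdh, the xanthine oxidoreductase of purine breakdown, had 323, 338 and 395 and then 312, 345 and 394 CPM in CD8, and 349, 305 and 293 and then 619, 626 and 646 in CD4, with a difference of -1.01 (SE 0.17). Lgals7, a galectin at 0.178 CPM or less in every CD8 pool of these groups, had 1.45, 2.61 and 1.58 and then 5.35, 8.04 and 5.12 CPM in CD4, with a difference of -5.10 (SE 0.89). It is listed at 0 in CD8 RUX+CSA 10 and 11, so that fitted size depends on the prior count. These calls were lost without untreated 1, 2 or 3 or RUX+CSA 10 or 11 of the CD8 pools, when 0 genes passed, and 3 passed without RUX+CSA 12. The interaction of ruxolitinib and cyclosporine, that is, whether the combination departs from the sum of the 2 single-drug effects, was called by edgeR for 0 of 12684 genes, with 368 at an unadjusted p below 0.05 and 0 by limma voom. DESeq2 called 1, the chemokine gene Ccl1, with an interaction of -3.24 and an adjusted p of 0.025.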

How the data were processed

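The deposited values are raw counts of read pairs per gene, checked as whole numbers, with no filter; per the file headers, featureCounts 2.0.3 counted pairs over exons by gene in a UCSC mm10 annotation with no strand option. STAR aligned the reads, per the submitters' processing notes; its version is not given in the sources used here. Libraries were made with a SMART-Seq mRNA kit, per the labels. The 24 columns matched the 24 samples by label. The counts were scaled by TMM and filtered by filterByExpr before the 12 CD8 libraries were fitted with the robust quasi-likelihood model of edgeR 4.0.16 (R 4.3.3), with limma 3.58.1 and DESeq2 1.42.0 as alternatives. Adjusted p-values are Benjamini-Hochberg over all genes tested. Depth was 16912085 to 34550183 read pairs, and a count of 3 is 0.0868 to 0.177 CPM. On simulated data with 12539 genes the test called 83% of 2-fold and 93% of 4-fold changes and 0.1% of unchanged genes. Low-count genes were not changed there, and noise was independent between libraries. No shared shift of other-cell markers and no outlying pool was simulated, so these shares do not cover the dependence on single libraries seen here. Named genes were the 6 largest rises and 6 largest falls per class and the 8 of each among apart genes, at a mean log2 CPM of at least 3, with groups not overlapping and no marker of another cell, plus members of described families; a few of these are left out of the text. Members and lists were chosen with earlier results of these data known. The alternatives tried were RLE scaling, DESeq2, voom, no filter, fewer libraries, marker covariates and leaving out each library. Promoters are RefSeq GRCm38.p6.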

Additional observations from a re-analysis of the deposited data

Results flagged for a closer look

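The RUX+CSA effect of 3 genes differed between CD8 and CD4 cells by a test of the difference itself. The difference, CD8 minus CD4 on the log2 scale, was 1.88 for Cd68, -1.01 for Xdh and -5.10 for Lgals7, each at an adjusted p of 0.0464 by edgeR over 13476 genes. In Cd68 the 3 CD8 pools rose and the CD4 pools did not pass the test (log2 fold change -0.61, adjusted p = 0.22); in Xdh the CD4 pools rose (log2 fold change 1.00, adjusted p = 0.000605) while the CD8 value was -0.02 (adjusted p = 0.943). Lgals7 is listed at 0 in 2 CD8 RUX+CSA pools, so its size depends on the prior count. With RLE scaling, or without CD8 untreated 1, 2 or 3 or RUX+CSA 10 or 11, 0 genes passed. Of 25 macrophage and monocyte genes tested in CD8 cells, 2 rose and 5 fell, while their summed level was 664 to 823 CPM in RUX+CSA and 151 to 279 in untreated pools. Their part in Cd68 was not tested.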

How the results depend on the processing

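The 1988 calls numbered 2000 with RLE scaling, 2851 with DESeq2, 1931 with voom, 1598 with no filter and 2781 with only the 6 libraries of both groups. They rose to 3893 without CSA 6 and RUX 7 and came to 1, 0 and 0 beside the neutrophil, erythroid and B cell covariates. Leaving out each library gave 426 to 1807. The 76 transcription factors called became 118 with DESeq2, 122 with the 6 libraries, 154 without CSA 6 and RUX 7 and 18 to 63 in leave-outs. The 128 receptors became 232 and the 133 metabolic genes 244 without CSA 6 and RUX 7, and leave-outs gave 45 to 106 and 31 to 133; each class came to 0 beside each covariate. The 947 genes apart became 293 at 0.75 of the fold, 892 with the added condition and 305 to 1066 on leaving out a library. The 3 differences between cell types became 0 with RLE scaling, 42 with only the 12 libraries compared and 0 to 3 in leave-outs. DESeq2 called 1 interaction. Of the 46 genes that the naming rule picks, all kept their calls with DESeq2, voom and without CSA 6 and RUX 7, 45 with RLE scaling, 42 with 6 libraries and 38 with no filter; none kept it beside a covariate, and 6 to 26 lost it on leaving out 1 library. None of these 46 reversed in the alternatives run; of the 1988 calls, 1973, 1953 and 1931 kept their sign beside the neutrophil, erythroid and B cell covariates. The cause of these shifts was not tested. No paired analysis was possible because pool numbers are not shared between groups. A level below 0.0868 to 0.177 CPM is within the counting floor of 3.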

Other observations

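Outside the 3 classes, 66 genes that rose and 94 that fell stayed apart with the added condition and kept their calls in all leave-outs at a mean log2 CPM of at least 3, a rule chosen after seeing the data. Among those that rose were Ifitm2, an interferon-induced membrane protein (log2 fold change 2.14), App, the amyloid precursor (2.08), and Gucy1a3, a subunit of soluble guanylate cyclase (1.71). Vcl, the focal adhesion protein vinculin, and Lmo4, a LIM-domain cofactor, rose by 1.13 and 1.11, and Rasgrp4, a Ras activator of mast cells, by 1.08. Basophil and mast cell markers summed to 7.39 to 35 CPM in untreated and 92.9 to 126 in RUX+CSA pools with 8 of 10 tested rising, and no such covariate was fitted, so their part in Rasgrp4 was not tested. Those that fell included Matk, a kinase that restrains Src-family kinases (-1.22), Ash1l, a histone methyltransferase (-1.14), and Kcna3, the potassium channel Kv1.3 of T cells (-1.14). Appl2, an endosomal adaptor, and Lztfl1, a ciliary trafficking regulator, stood at -1.18 and -1.18, and Tlr12, a sensor of parasite profilin, at -1.40.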
